A study of Mus musculus with 6 samples.

Results

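The G2 and mitosis genes described here are a list of 52 genes that dividing cells express while they prepare for and carry out mitosis. The list was given by gene symbol, and all 52 were found among the 21485 genes shared by the 2 gene lists used in the deposited matrices. The study profiled cultured mouse muscle-derived stem/progenitor cells (MDSPCs), the slowly adhering fraction of dissociated skeletal muscle, by 3′ single-cell RNA sequencing in droplets. The labels give 3 populations from young and 3 from old mice, called young 1 to 3 and old 1 to 3 here. All 6 were enriched by serial preplating and grown in proliferation medium with serum and chick embryo extract, with no treatment named for either group. The labels number the populations as biological replicates but give no age, sex or strain and do not say that each came from its own animal, so p-values measure only the spread between these populations.

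Genes of this class are read out late in the cell cycle. Their promoters are held silent in resting and early-cycle cells by the DREAM complex and are switched on by MYBL2, FOXM1 and NF-Y as cells pass through S phase into G2. The proteins then act in turn. Cyclin-dependent kinase 1 with its B-type cyclin drives entry into mitosis, condensin and topoisomerase shape the chromosomes, kinetochores and spindle proteins attach and move them, and the anaphase-promoting complex ends mitosis by marking its substrates for destruction. In muscle, progenitor cells run this programme while they expand and leave it when they fuse and differentiate.

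A pair of short promoter elements are textbook marks of the class: the CHR element, read here as the letters TTTGAA, and the CCAAT box bound by NF-Y. The promoter table from RefSeq (build GRCm38.p6) held 46 of the 52 members, each as a window of 250 bases before and 50 after the start. TTTGAA, on either strand, was present in 33 of the 46 (71.7%), against 20.2% of all 27025 genes in the table. CCAAT, on either strand, was present in 35 of the 46 (76.1%), against 41.1% of all genes, and 27 of the 46 (58.7%) held both, against 8.97%. Of the S-phase genes used as anchors below, 18.2% of 22 held TTTGAA and 59.1% held CCAAT. Of 45 other G2 and mitosis genes, 57.8% held TTTGAA, 71.1% CCAAT and 46.7% both. The variant TTTAAA, which reads the same on both strands, was found in 23.9% of members and 14.9% of all genes. No other variant was counted, so a promoter without TTTGAA may still hold a CHR element. The 120 bases before the start given in that table are shown for 9 members that the results below turn on. For these members that start lay 0 to 64 bases from the gene start in the GENCODE annotation (GRCm38). Some stretches, such as that of Ube2c, thus reach into the annotated gene. The bases are read 5′ to 3′ on the gene's own strand, with TTTGAA and CCAAT (or their reverse complements TTCAAA and ATTGG) in capitals.
Cbx5: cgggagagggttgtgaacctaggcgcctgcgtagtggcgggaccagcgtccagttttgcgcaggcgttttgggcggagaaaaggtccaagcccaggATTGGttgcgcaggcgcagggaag
Hmgb2: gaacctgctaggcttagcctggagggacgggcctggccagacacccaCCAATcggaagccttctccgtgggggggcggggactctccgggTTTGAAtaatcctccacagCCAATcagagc
Cdk1: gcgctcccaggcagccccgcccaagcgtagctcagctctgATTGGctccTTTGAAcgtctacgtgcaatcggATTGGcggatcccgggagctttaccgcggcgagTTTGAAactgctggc
Top2a: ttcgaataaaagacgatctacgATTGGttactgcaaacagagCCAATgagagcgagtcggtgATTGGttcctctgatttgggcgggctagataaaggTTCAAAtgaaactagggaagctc
Ube2c: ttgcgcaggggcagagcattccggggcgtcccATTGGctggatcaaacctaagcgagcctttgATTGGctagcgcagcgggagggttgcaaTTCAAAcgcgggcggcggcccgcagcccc
Cdc20: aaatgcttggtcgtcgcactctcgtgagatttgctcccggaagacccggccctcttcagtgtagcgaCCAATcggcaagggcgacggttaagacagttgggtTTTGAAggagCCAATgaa
Cenpf: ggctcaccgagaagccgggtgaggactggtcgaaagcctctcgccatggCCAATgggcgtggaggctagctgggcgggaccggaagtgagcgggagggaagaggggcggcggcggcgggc
Gas2l3: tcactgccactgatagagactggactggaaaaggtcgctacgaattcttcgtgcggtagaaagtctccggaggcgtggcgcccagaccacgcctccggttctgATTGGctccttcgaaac
Psrc1: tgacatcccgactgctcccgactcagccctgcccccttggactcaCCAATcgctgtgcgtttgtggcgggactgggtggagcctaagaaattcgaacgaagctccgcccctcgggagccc
The windows lie in GRCm38.p6 at chr15:103239853-103239972 (minus strand) for Cbx5, chr8:57511723-57511842 (plus strand) for Hmgb2, chr10:69352913-69353032 (minus strand) for Cdk1, chr11:99024190-99024309 (minus strand) for Top2a, chr2:164769809-164769928 (plus strand) for Ube2c, chr4:118437344-118437463 (minus strand) for Cdc20, chr1:189688087-189688206 (minus strand) for Cenpf, chr10:89443968-89444087 (minus strand) for Gas2l3 and chr3:108383718-108383837 (plus strand) for Psrc1. In these 120 bases, Cdk1 held 2 TTTGAA and 2 CCAAT, and Top2a held 1 and 3. Hmgb2, Ube2c and Cdc20 each held 1 TTTGAA and 2 CCAAT. Cbx5, Cenpf, Gas2l3 and Psrc1 held 1 CCAAT each and no TTTGAA. These are matches of letters, not measured binding.

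The deposited matrices held between 133974782 and 196481316 UMIs (unique molecular identifiers, each counted as 1 RNA molecule) per sample. Between 8673 and 12541 cells per sample were kept, at medians of 13001 to 19951 UMIs. Pairs of samples shared 24 to 41 cell barcodes. Scrublet called 3 doublets in all at its default settings. At an assumed rate of 0.8% per 1000 barcodes (7.13% to 10.2% per sample) it called 815 in old 3 and 3 in the other samples together, so doublets were in effect not removed. Of the 8 myogenic markers checked, Myod1 ranged from 45.7 to 909 CPM (a gene's counts scaled to a common library total), while Pax7, the satellite cell factor, was at 0.0265 CPM in young 3 and Myf5 at 0.00749 CPM in young 1. Summed immune markers stayed at or below 8.20 CPM and Schwann cell markers at or below 2.58 CPM, and endothelial markers at or below 1.72 CPM outside young 2 (59.4 CPM, nearly all from Tek). Summed fibro-adipogenic markers were at 206 to 434 CPM, mostly Gsn and Col3a1, and smooth muscle and pericyte markers at 3.34 to 71.7 CPM. Of the first list, Pdgfra, Dcn and Lum each stayed at or below 1.97 CPM, while Smoc2 reached 103 CPM in young 2. Of the second, Notch3 was at 68.3 CPM in young 2 and 42.0 CPM in old 2, and Rgs5 at 10.3 CPM in young 3. Summed contractile genes ranged from 96.5 CPM in old 1 to 9504 CPM in old 3, so the samples differed widely in differentiating cells. Young 1 and old 1 were counted on a shorter gene list than the other 4 samples.

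All 52 members were detected in all 6 samples. Together they took 3800, 5719 and 6924 CPM in young 1, 2 and 3, and 6166, 3373 and 6245 CPM in old 1, 2 and 3. Old 2 and young 1 were low, the other 4 were high, and the groups overlapped over almost their whole range. The mean was 5481 ± 1575 CPM (SD, n = 3) in young and 5261 ± 1636 CPM in old samples. Old 2 held the lowest value for 34 members and young 1 for the other 18. The highest value fell in old 1 for 21 members, in young 3 for 20, in old 3 for 7 and in young 2 for 4. In sums over a whole population, fewer dividing cells and less RNA per dividing cell cannot be told apart. The cell classes below were read for that reason, but they separate these only in part.

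**Figure D1:**
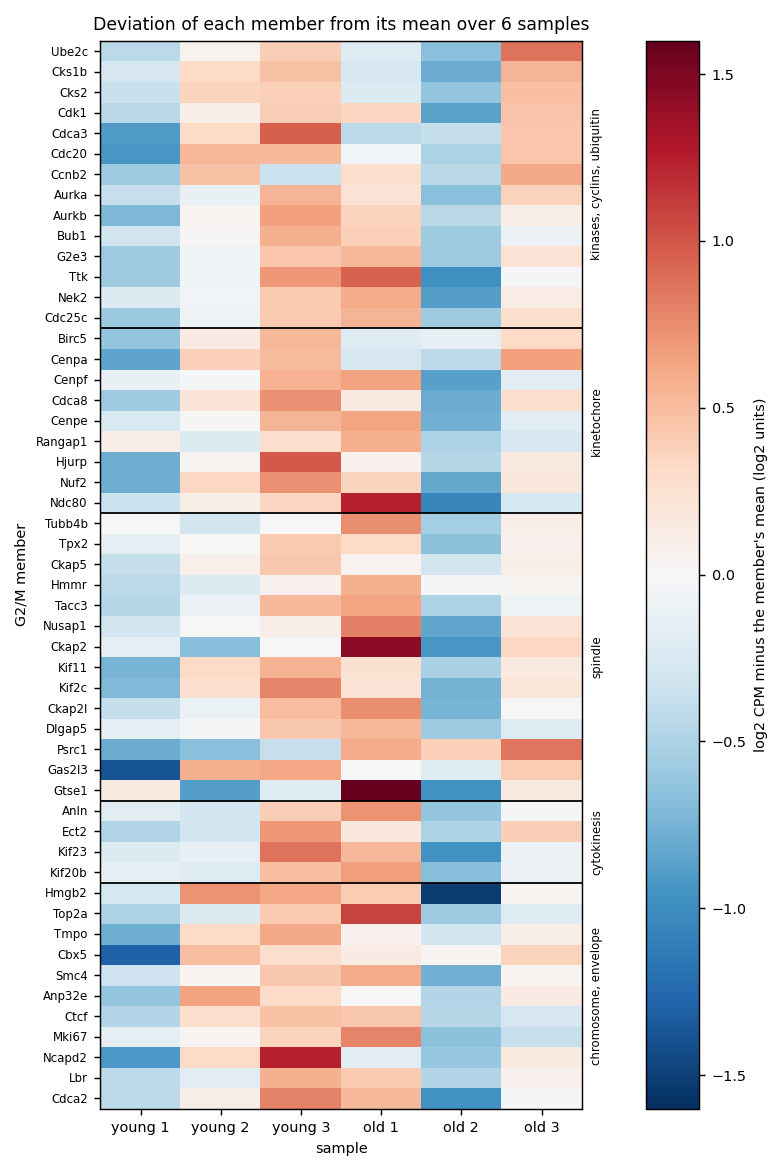
Each row is 1 of the 52 members, grouped by role, and each column 1 sample; colour gives log2 CPM minus the member's own mean over the 6 samples (red higher, blue lower). Young 1 and old 2 are blue in most rows, while Psrc1 is blue in the 3 young and red in the 3 old samples.

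Among the kinases, cyclins and ubiquitin genes, Cdk1, the kinase that drives mitotic entry, was at 147, 217 and 265 CPM in young 1 to 3 and at 256, 111 and 276 CPM in old 1 to 3. Its partner cyclin Ccnb2 was at 36.2, 74.9 and 42.4 CPM in young 1 to 3 and at 65.7, 39.5 and 82.3 CPM in old 1 to 3. Young 3, which was high for most members, was low for Ccnb2. Cks1b, a small subunit of cyclin-dependent kinases, was at 324, 488 and 542 CPM in young 1 to 3 and at 325, 226 and 573 CPM in old 1 to 3. Its paralogue Cks2 was at 239, 393 and 400 CPM in young 1 to 3 and at 262, 198 and 428 CPM in old 1 to 3. Both were highest in old 3 and lowest in old 2.

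Aurka, the kinase of the spindle poles, was at 34.1, 40.3 and 64.1 CPM in young 1 to 3 and at 51.6, 27.6 and 56.6 CPM in old 1 to 3. Aurkb, the kinase of the chromosomal passenger complex, was at 21.6, 36.8 and 56.4 CPM in young 1 to 3 and at 45.6, 26.2 and 38.4 CPM in old 1 to 3. Each gene was lowest in 1 of the low samples, old 2 for Aurka and young 1 for Aurkb, and both were highest in young 3. Cdc20, which activates the anaphase-promoting complex, was at 41.5, 115 and 114 CPM in young 1 to 3 and at 76.8, 55.8 and 108 CPM in old 1 to 3. Ube2c, the ubiquitin-conjugating enzyme of that complex, was at 346, 486 and 614 CPM in young 1 to 3 and at 407, 295 and 859 CPM in old 1 to 3. Old 3 stood above the rest for Ube2c. In the GENCODE annotation (GRCm38) Ube2c (chromosome 2, 164769898 to 164778822) overlaps the contractile gene Tnnc2 on the other strand. Tnnc2 was at 592 CPM in old 3 and at 2.96 to 104 CPM elsewhere. The use of strand in counting is not given in the sources used here. Whether any Tnnc2 reads entered the Ube2c counts was not tested. In cells with 200 or more contractile UMIs of 5000, Ube2c was seen in 9.20% of young 2 and 36.2% of old 3, against 56.4% and 67.1% of all their cells. With 5 or more contractile UMIs, which took in 67.4% of the cells of old 3, the share in old 3 was 67.5%. In old 3 it was at 2378 CPM in the late-only cells defined below and at 130 CPM in cells low for both anchor sets.

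At the kinetochore, Birc5 (survivin, a passenger protein) was at 243, 409 and 537 CPM in young 1 to 3 and at 322, 335 and 462 CPM in old 1 to 3. Cenpf, a large outer kinetochore protein, was at 109, 116 and 173 CPM in young 1 to 3 and at 184, 64.7 and 104 CPM in old 1 to 3. Birc5 ranged over 2.21-fold between samples and Cenpf over 2.85-fold. Among the chromosome proteins, Top2a, the topoisomerase that untangles sister chromatids, was at 135, 162 and 255 CPM in young 1 to 3 and at 400, 127 and 165 CPM in old 1 to 3. Mki67, the coat of mitotic chromosomes and a common marker of proliferation, was at 57.2, 64.9 and 81.5 CPM in young 1 to 3 and at 109, 40.4 and 49.0 CPM in old 1 to 3. Both were highest in old 1 and lowest in old 2. Hmgb2, a DNA-bending chromatin protein, was at 279, 560 and 522 CPM in young 1 to 3 and at 449, 119 and 347 CPM in old 1 to 3. The fold between the highest and the lowest sample ran from 1.75 for Ckap5 to 6.62 for Gtse1, with a median of 2.63 over the members.

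To read the number of cells in each phase and the level within a phase, cells were classed by genes that are not members. The S anchors were 29 DNA replication genes such as the Mcm helicase subunits, and the late anchors were 27 mitotic genes such as Plk1 and Ccnb1. Each cell was thinned at random to 5000 UMIs, which left out the 1368 cells below that depth (539 young, 829 old). A cell with 6 or more late-anchor UMIs was called late, and 1 with 10 or more S-anchor UMIs was called S. At most 1 late or 3 S UMIs counted as low. The cuts were the same in every sample, so less late-anchor RNA per dividing cell would also show as fewer late cells.

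Late cells made up 16.3%, 24.5% and 36.1% of the young and 30.1%, 15.1% and 24.6% of the old samples. The Wilson 95% interval, which covers counting error only, was 15.5% to 17.1% for young 1 and 35.2% to 37.0% for young 3. The order of the samples was that of the summed members, except that old 1 and old 3 changed places. The group means were 25.6% ± 9.94 (SD, n = 3) in young and 23.3% ± 7.55 in old samples, a difference of -2.36 percentage points (exact permutation test, two-sided, p = 0.8; smallest possible p 0.1). S cells made up 12.4%, 18.7% and 38.7% of the young and 33.7%, 11.1% and 22.7% of the old samples (difference of means -0.72 percentage points, exact permutation p = 0.9). Adjusted over the 2 shares, both p were 0.9. Between the 2 samples on the shorter gene list the late share was 13.8 percentage points higher in the old one, while among the 4 samples on the longer list the difference was -10.4 points (exact permutation p = 0.667). For S cells the same differences were 21.4 and -11.8 points. The direction thus differed between the gene lists. Without young 3 the difference in late cells was 2.87 points, and without old 2 it was 1.70 points, both in favour of the old samples.

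Within late cells that were low for S anchors, the samples were closer. The summed members there took 9590, 11762 and 10972 CPM in young 1 to 3 and at 10612, 9692 and 13016 CPM in old 1 to 3, a range of 1.36-fold against 2.05-fold over all kept cells. The median fold between the highest and lowest sample fell from 2.63 over all cells to 1.75 in these late-only cells. The late cut admits only cells with enough late-anchor RNA, which can itself bring the samples closer. The part of this selection in the narrower ranges was not tested. In cells low for both anchor sets, where counts were lowest, the median fold between samples was 3.92, above that over all cells. The sum there was between 995 and 1831 CPM, and in S-only cells between 2975 and 4363 CPM. Late-only cells numbered 194 in old 2 and 436 to 753 in the other samples. They made up from 2.28% (old 2) to 6.19% (old 3) of the thinned cells. Cells that were neither S-only, late-only, high for both anchor sets nor low for both made up 35.8% in old 2 to 67.5% in young 3. Values by class thus rest on a part of the cells that differed between samples.

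**Figure D2:**
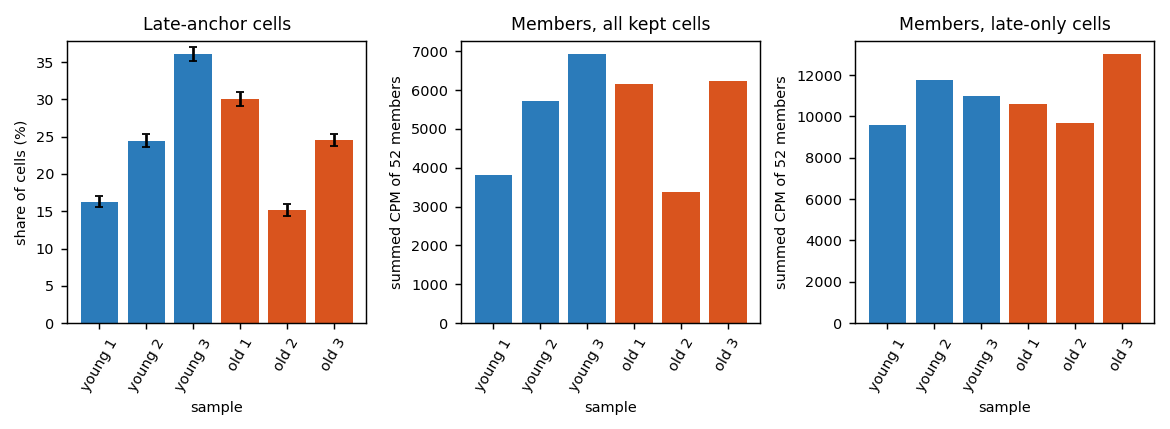
Bars give, for each sample (young blue, old orange), the share of late-anchor cells in percent with its 95% Wilson interval, the summed CPM of the 52 members over all kept cells, and the same sum within late-only cells. The sums run from 3373 to 6924 CPM over all cells and from 9590 to 13016 CPM within late-only cells.

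Per cell, at 5000 UMIs, the members gave a median of 9, 19 and 30 UMIs in young 1 to 3 and of 27, 7 and 22 UMIs in old 1 to 3. A cell showed a median of 7, 12 and 17 different members in young 1 to 3 and of 16, 5 and 13 in old 1 to 3. At least 10 members were seen in 42.7%, 56.4% and 82.7% of cells in young 1 to 3 and 73.7%, 33.1% and 61.6% in old 1 to 3. Young 3 and old 1 had the most cells with many members, and old 2 the fewest.

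The share of cells with at least 1 UMI of a member depended on the gene. Over the 6 samples Mki67 was seen in 13.2% to 32.6% of thinned cells (median 19.4%), Top2a in 21.4% to 57.4% and Cks1b in 54.5% to 88.5%. Cdc20 was seen in 14.1% to 35.1% and Psrc1, a microtubule-binding spindle protein, in 4.41% to 14.7%. Cells with 200 or more contractile UMIs of 5000 served as the reference, since differentiated muscle cells leave the cycle and should lack most members; how many of these cells had done so was not tested. They numbered 79, 174 and 13 in young 1 to 3 and 12, 35 and 1047 in old 1 to 3, with medians of 9567 to 20594 UMIs before thinning, against 13184 to 20113 UMIs over all thinned cells. In the 2 largest of these sets, young 2 and old 3, Mki67 was seen in 0.575% and 3.15% of cells, Top2a in 2.87% and 9.27%, Cdc20 in 1.15% and 8.12% and Psrc1 in 0.575% and 3.92%. Others were seen more often there: Cks1b in 21.8% and 40.5%, Cks2 in 13.2% and 26.6% and Ube2c in 9.20% and 36.2%. For 49 of the 52 members the share was higher among all cells than in this reference in all 6 samples. Cbx5 (heterochromatin protein 1 alpha) was the exception in every sample, at 24.9% to 59.99% of all cells and 44.3% to 91.7% of the reference. Tubb4b, a tubulin, was seen in 15.4% to 55.2% of the reference and 58.4% to 83.9% of all cells. Old 3 stood apart here, since 46 of its 1047 reference cells (4.39%) were late cells, against 1 in the other 5 samples together.

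The members were then ordered by position, the log2 ratio of CPM in late-only over S-only cells, with higher values for genes tied more to mitosis. A gene that varies little between the classes also lies near 0. A low position, called early here, thus does not by itself show expression early in the cycle. The S anchors had a median position of -1.94 and the late anchors 2.63, as their choice requires. The median position of the members ran from -0.04 to 3.68 and was above 0 for 51 of 52. Each sample's order had a Spearman rho of 0.938 to 0.973 with the median of the other 5, over the 52 members, as a description of genes measured in the same cells.

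**Figure D3:**
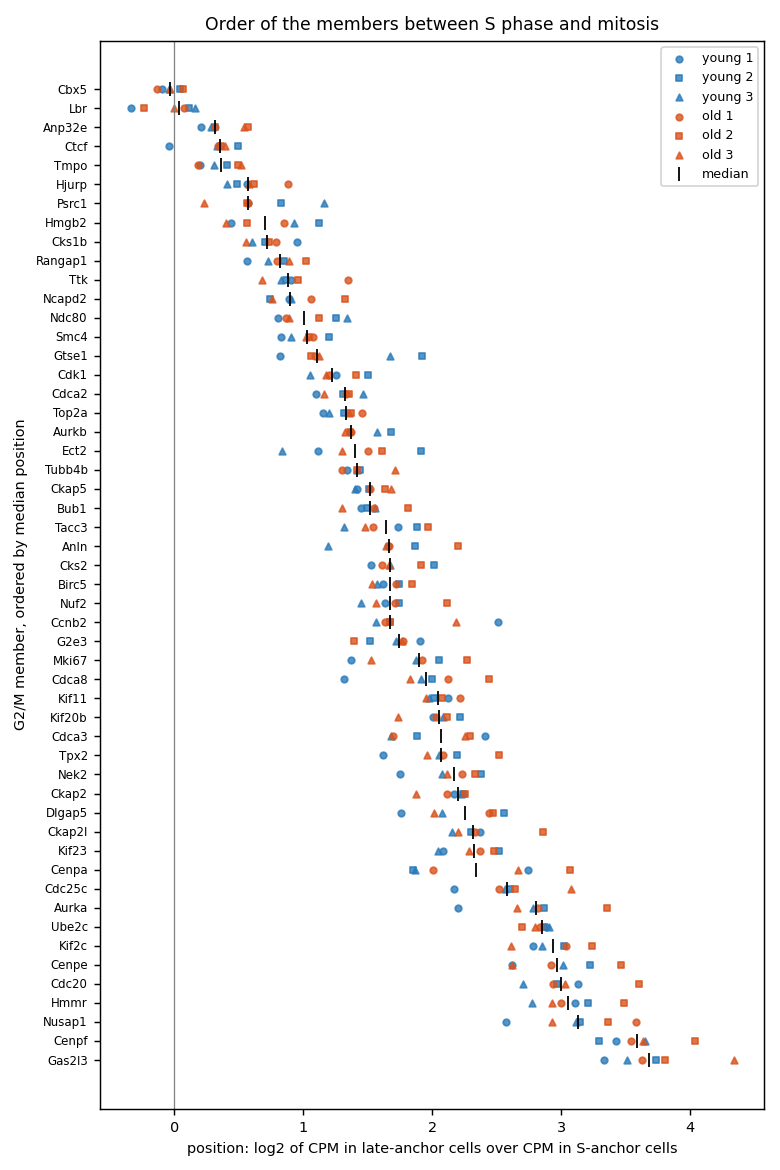
Points give the position of each member (log2 of CPM in late-only over S-only cells) in each sample, young in blue and old in orange, and black ticks the median over 6 samples. The order runs from Cbx5 at -0.04 to Gas2l3 at 3.68, and the 6 samples keep close to it.

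Of the 6 earliest members, 5 were in the chromosome, chromatin and envelope group, which holds 11 of the 52, and 1 (Hjurp) was a centromere gene. Cbx5 had a median position of -0.04 (range -0.13 to 0.07) and Lbr, the lamin B receptor of the inner nuclear membrane, 0.04 (-0.34 to 0.16). Anp32e, a chaperone that removes the histone variant H2A.Z, followed at 0.31, then the insulator protein gene Ctcf at 0.35, Tmpo (lamina-associated polypeptide 2) at 0.36 and Hjurp, which loads the centromeric histone, at 0.57. Each of these overlapped its neighbour in range over samples, except that all values of Lbr lay below those of Anp32e (0.21 to 0.57). Psrc1, a spindle gene, was level with Hjurp at 0.57. Hmgb2 was at 0.71 (0.40 to 1.12) and Cdk1 at 1.23 (1.06 to 1.51), both far below the last members. In S-only cells over cells low for both anchor sets, the log2 ratio was 0.45 for Cbx5, 0.44 for Anp32e, 0.44 for Ctcf and 0.37 for Psrc1. These genes were thus hardly raised in S phase. The same ratio was 1.64 for Lbr, 1.29 for Tmpo, 2.27 for Hjurp and 3.35 for Hmgb2.

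The 6 latest members were 3 spindle genes, 2 kinetochore genes and Cdc20, from groups of 14, 9 and 14 members. Cenpe, a kinetochore motor, had a median position of 2.97, Cdc20 of 3.00, Hmmr, a spindle pole protein, of 3.05, and Nusap1, which bundles spindle microtubules, of 3.13. Cenpf followed at 3.59 (3.29 to 4.04) and Gas2l3, a linker of actin and microtubules that acts in cytokinesis, at 3.68 (3.33 to 4.34). The ranges of Cenpf and Gas2l3 overlapped. Ube2c was at 2.85 with a narrow range of 2.70 to 2.91. The Cks paralogues separated: Cks1b was at 0.56 to 0.95 and Cks2 at 1.53 to 2.02, with no overlap over the 6 samples.

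The promoter letters were also counted along this order, with no test of the difference. TTTGAA was found in 73.9% of the 23 matched members among the 26 earliest and in 69.6% of the 23 among the 26 latest, and CCAAT in 78.3% and 73.9%. Both Cbx5 at the early end and Gas2l3 at the late end lacked TTTGAA in the full window, whereas Cenpf held 1 there outside the printed stretch.

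Cells high for both anchor sets were read separately. Of the members, 22 were highest in these S-and-late cells and 30 in late-only cells, by the median over samples. Top2a, Mki67 and Aurkb belonged to the first kind, with median levels of 461, 175 and 88.9 CPM in S-and-late cells against 347, 128 and 71.3 CPM in late-only cells. Cdc20 belonged to the second, with 105 CPM in S-and-late and 259 CPM in late-only cells, and Cenpa, the centromeric histone variant, had 239 and 514 CPM.

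**Figure D4:**
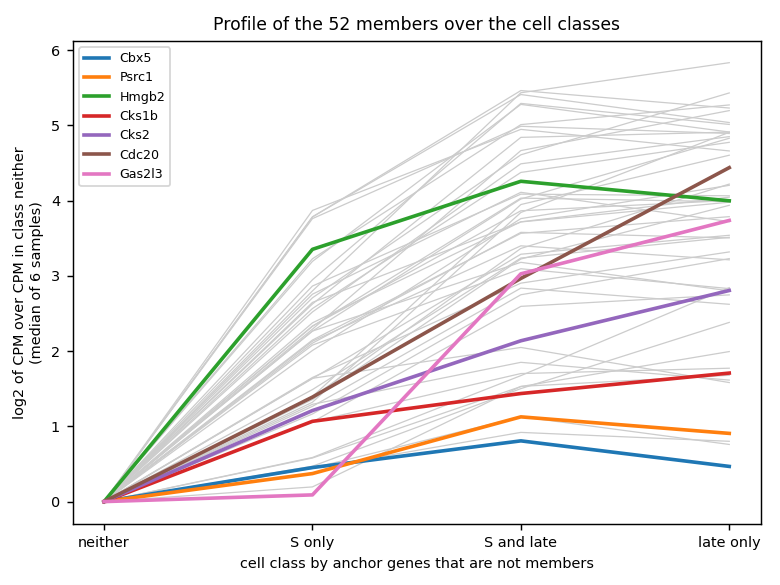
Lines give each member's log2 CPM in S-only, S-and-late and late-only cells over cells low for both anchor sets (median of 6 samples), with 7 members in colour. Hmgb2 is already raised in S-only cells (3.35), Gas2l3 is not (0.09), and Cbx5 and Psrc1 stay within 1.13 of their level in cells low for both.

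Some members were far less tied to the cycle than the rest. In late-only cells over cells low for both anchors, the log2 ratio was 0.47 for Cbx5, 0.76 for Ctcf, 0.80 for Anp32e and 0.91 for Psrc1. Lbr followed at 1.58, Tmpo at 1.61, Ckap5, a microtubule polymerase, at 1.68 and Cks1b at 1.71. At the other end Nusap1 reached 5.83 and Kif2c, a microtubule depolymerase, 5.43. Cbx5 was at 69 to 213 CPM in late-only cells and still at 41.0 to 174 CPM in cells low for both.

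Gtse1 and Ckap2 departed from the course of the list by more than 1 log2 unit in a sample over all kept cells, both in old 1. Within late-only cells the members past that limit were Gtse1 (1.30 in old 1) and Cbx5 (-1.01 in young 1), and Ckap2 lay just under it. Gtse1, which regulates microtubules and p53 in G2, was at 13.1, 6.48 and 10.4 CPM in young 1 to 3 and at 40.4, 6.10 and 13.3 CPM in old 1 to 3. Its level in old 1 lay 1.34 log2 units above what the median member did in that sample. Ckap2, a spindle-associated protein, was at 36.7, 25.4 and 40.8 CPM in young 1 to 3 and at 110, 21.5 and 51.4 CPM in old 1 to 3, a departure of 1.01 in old 1. For both genes the sample that stood apart was on the shorter gene list, and the departure was also positive in young 1, the other sample on that list (0.57 and 0.28). In the edgeR fit with a term for the list, the log2 change from the shorter to the longer list was -1.43 (SE 0.44, adjusted p = 0.316) for Gtse1 and -0.96 (SE 0.46, adjusted p = 0.434) for Ckap2. Over all genes 0.269% passed this list comparison, and 0 of the 52 members did. In late-only cells old 1 was again the highest, at 56.1 CPM for Gtse1 and 215 CPM for Ckap2. The part of the gene list in these values was not tested further.

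Just under the limit of 1 over all kept cells were Psrc1 (0.98 in old 2), Gas2l3 (-0.95 in young 1), Hmgb2 (-0.92 in old 2) and Cbx5 (-0.86 in young 1). Gas2l3 was at 5.42 CPM in young 1 and between 12.3 and 21.7 CPM in the other samples. Cbx5 was at 57.7 CPM in young 1 and between 144 and 198 CPM in the others.

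Ncapd2, a condensin subunit on chromosome 6, was at 15.02, 35.5 and 67.3 CPM in young 1 to 3 and at 25.4, 18.7 and 31.4 CPM in old 1 to 3. Its highest sample was young 3, where the median of 386 genes of chromosome 6 (mean above 10 CPM) lay 0.39 log2 units above the median gene. Shifts of a whole chromosome were otherwise largest in old 2, at 0.71 for X, 0.35 for chromosome 11, 0.34 for chromosome 13 and 0.26 for chromosome 5. Chromosome 4 lay 0.22 higher in young 2. Of the members, Top2a, Birc5, Aurkb and Hmmr lie on chromosome 11, Cks2 on 13, Cenpa and Tacc3 on 5, Cdc20, Cdca8 and Kif2c on 4, and Cdca3 on 6 with Ncapd2. Their levels were read relative to the median member of the same sample, as for Gtse1 above. In old 2, Hmmr was at 0.56, Birc5 at 0.44, Cenpa at 0.18, Aurkb at 0.15, Tacc3 at 0.09, Top2a at 0.02 and Cks2 at -0.04 log2 units. In young 2, Cdc20 was at 0.49, Kif2c at 0.23 and Cdca8 at 0.17. In young 3, Ncapd2 was at 0.76 and Cdca3 at 0.48. The part of the chromosome shifts in these values was not tested.

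Old and young populations were compared with edgeR's quasi-likelihood test on counts summed over all kept cells, with the gene list as a term. None of the 52 members passed an adjusted p under 0.05, where 1 of 14512 genes (0.00689%) did. At an unadjusted p under 0.05 there was 1 member, Psrc1, where 3.53% of all genes passed. The log2 fold change of old over young was below 0 for 39 of the 52, against 51.1% of all genes, with a median of -0.13 against -0.01. That median moved with single samples. It was 0.04 without young 3 and 0.20 without old 2, but -0.29 without old 3. On the 4 samples of the longer list alone it was -0.42. Leaving out young 1 or old 1 gave the same -0.42 and is not a separate check. The list term then takes up the lone sample of the shorter list, so the same 4 samples set the group difference. By role, all 9 kinetochore genes and all 4 cytokinesis genes were below 0, as were 9 of 11 chromosome and envelope genes, 10 of 14 kinase, cyclin and ubiquitin genes and 7 of 14 spindle genes, with none past the threshold.

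Within late-only cells the same test called 2 of 11219 genes (0.0178%) and 0 of the 52 members. At an unadjusted p under 0.05 Psrc1 was again the 1 member, against 3.4% of all genes. The fold changes were below 0 for 26 of the 52, against 50.2% of all genes, with a median of -0.01. That median was 0.09 without old 2 and -0.08 without old 3, with 36 and 14 of the 52 above 0. The split by role differed from that over all cells. Below 0 were 7 of 9 kinetochore, 2 of 4 cytokinesis and 8 of 11 chromosome and envelope genes. So were 6 of 14 kinase, cyclin and ubiquitin genes and 3 of 14 spindle genes. Fold changes of members in these cells ran from -0.72 for Hmgb2 to 1.04 for Psrc1.

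Psrc1 was at 10.8, 11.7 and 14.5 CPM in young 1 to 3 and at 28.2, 24.4 and 33.7 CPM in old 1 to 3. All old samples lay above all young ones, which held for no other member over all kept cells and for 6.06% of all genes in either direction. The log2 fold change was 1.16 (SE 0.25, unadjusted p = 0.00415), and the edgeR adjusted p was 0.9999, so the gene did not pass. In late-only cells it was at 14.7, 18.0 and 20.5 CPM in young 1 to 3 and at 35.2, 35.3 and 41.2 CPM in old 1 to 3, from 116 to 502 counts each (log2 fold change 1.04, SE 0.20, edgeR adjusted p = 0.752). In cells low for both anchor sets it was at 7.93, 5.94 and 12.3 CPM in young 1 to 3 and at 23.7, 17.9 and 21.8 CPM in old 1 to 3. In both of these cell classes, too, no old sample overlapped the young range. DESeq2 called it in both fits, with adjusted p of 0.0119 over all cells and 0.0142 in late-only cells; it called 1.5% and 0.66% of all genes there and no other member. The fold change stayed between 0.94 and 1.29 over all alternatives run for all kept cells.

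Hmgb2 was the member with the lowest fold change, -0.65 (SE 0.54) over all cells and -0.72 (SE 0.36, edgeR adjusted p = 0.999) in late-only cells. In late-only cells it was at 579, 1029 and 710 CPM in young 1 to 3 and at 627, 303 and 526 CPM in old 1 to 3. After scaling between libraries the groups did not overlap there, which held for 2 members, Hmgb2 and Psrc1, and for 5.57% of all genes. Unscaled, old 1 lay above young 1. Over all cells the fold change of Hmgb2 was -0.16 without old 2, and -1.12, -1.12 and -1.07 without young 1, old 1 and old 3. In late-only cells it was -0.41 without old 2 and -0.45 without young 2. Ncapd2 and Kif23, the kinesin of the central spindle, followed with -0.51 (SE 0.44) and -0.43 (SE 0.44) over all cells. Ncapd2 moved to -0.13 without young 3, -0.15 without old 2, -0.94 without young 1 and -0.93 without old 1. Kif23 moved to -0.03 without young 3, -0.07 without old 2, and -0.82 without young 1 or old 1. For Hmgb2, Ncapd2 and Kif23, the fits without young 1 and without old 1 rest on the same samples of the longer list. Gtse1 and Ckap2 came after Psrc1 at the upper end with 0.62 (SE 0.43) and 0.56 (SE 0.45). Leaving out single samples moved them from 0.29 to 0.99 and from 0.19 to 0.96, lowest without old 3 and highest without old 2.

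**Figure D5:**
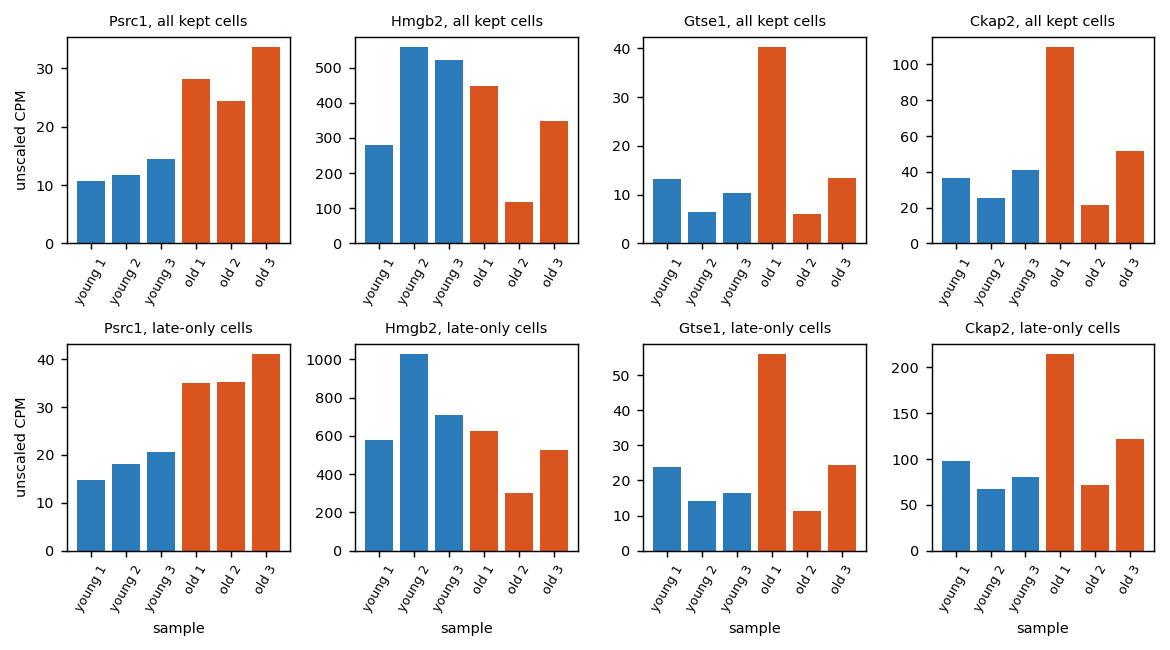
Bars give unscaled CPM of Psrc1, Hmgb2, Gtse1 and Ckap2 in each sample (young blue, old orange), over all kept cells in the upper row and in late-only cells in the lower row. The 3 old bars of Psrc1 lie above the 3 young bars in both rows, and old 1 alone stands out for Gtse1 and Ckap2.

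The rest of the pathway was read from lists of other genes. Of 57 further G2 and mitosis genes, which include the 27 late anchors, 0 passed in either direction in the edgeR fit over all cells, and their median log2 fold change was -0.17. Late-only cells were chosen by those anchors, so no value of this list is given for them. Among them Stmn1, a microtubule destabiliser, had the lowest fold change over all cells (-0.53) and Cdc25b, a phosphatase that activates cyclin-dependent kinases, the highest (0.67). The value of Cdc25b rested on old 3, at 46.0 scaled CPM against 14.4 to 16.8 in the other 5 samples. Of 13 matched activating regulators none passed, from Foxm1 at -0.47 to E2f2 at 0.95, which was also highest in old 3 (18.6 scaled CPM against 2.43 to 10.8). Of 17 subunits and partners of the anaphase-promoting complex none passed, from Cdc26 at -0.53 to Anapc13 at 0.24. Of 15 repressors and inhibitors none passed. Cdkn2b at -1.97 and Cdkn2a at 4.17 were the extremes and the 2 with an unadjusted p under 0.05 in that edgeR fit. Cdkn2a was at 14.5, 12.7 and 6.74 scaled CPM in young 1 to 3 and at 96.5, 31.1 and 529 in old 1 to 3. Part of the size of its fold change thus rested on old 3, while old 1 and old 2 also lay above all young samples.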

How the data were processed

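The authors deposited raw UMI counts per gene and cell barcode, with no normalization, from a 10x 3′ v3.1 kit. Cell Ranger was version 7.0.0 for young 1 and old 1 and 7.2.0 for the others, per the file headers, while the submitters' processing notes name 7.2.0 and build mm10 for all. All work used the 21485 shared identifiers. Cells with 1000 or more UMIs, 500 or more genes and under 15% mitochondrial UMIs were kept (61670 of 62849 barcodes), and Scrublet calls at default settings were removed. Counts were summed per sample, or per sample and class, and tested with edgeR's quasi-likelihood test (version 4.0.16, R 4.3.3; TMM scaling, filterByExpr, robust, terms for gene list and group, Benjamini-Hochberg over all genes at 0.05). DESeq2 1.42.0 was an alternative. Anchor cut-offs were the pooled 80th and 40th percentiles, and ratios used a prior of 0.5 counts. CPM are unscaled unless stated and are not per gene length. The edgeR script was tested on simulated data.

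The members, anchors and pathway lists were chosen with earlier results of these data known. Named members were 13 standard genes, the 6 earliest and 6 latest by position, the 8 least raised in late cells, those departing by more than 1, and the 3 largest fold changes in each direction; others were chosen after their values were seen. The contractile cut-off of 200 UMIs, the list comparison and the chromosome medians were added after seeing the data, since a preset cut-off of 5 UMIs took in 67.4% of old 3. The strand of promoter entries was that of the gene annotation for 51 of 51; their bases after the start were found in the annotated transcripts for 35 of 51, and in reverse complement for 3.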

Additional observations from a re-analysis of the deposited data

How the results depend on the processing

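Under the 10 alternatives run for the order of the members, 50 to 52 had a median position above 0 and Spearman's rho with the reported order was 0.989 to 0.996. The 6 earliest or the 6 latest lost 1 member in 8 of the 10, and both sets did in 2 of these. At the pooled 90th percentile Gas2l3 moved to 4.47, Cenpf to 3.94 and Hmmr to 3.33, and with thinned counts Hjurp moved to 0.39. The median share of cells with a UMI was 18.4% thinned and 37.5% unthinned. The difference in late cells ran from -7.02 to 2.87 percentage points on leaving out single samples, turning to 2.87 without young 3 and 1.70 without old 2. That in S cells ran from -6.32 to 6.997, turning to 6.997 without young 3, 4.99 without old 2 and 0.14 at the 90th percentile. The summed members differed by -220 CPM between group means unscaled and -404 CPM after TMM scaling.

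Over all kept cells the count of genes called was 1, against 218 with DESeq2, 0 without the list term, 0 on the longer list only, and 0 to 3 without single samples. In late-only cells it was 2, against 74 with DESeq2, 5 without a filter, 0 without the list term, 0 on the longer list only, 0 at the 90th and 1 at the 70th percentile, and 0 to 3 without single samples. Members called were 0 in both, and 1 (Psrc1) with DESeq2 in both. The causes were not tested. Replicate numbers did not pair the samples throughout. Correlations of same-numbered samples were 0.39, 0.28 and -0.11, against -0.47 to 0.32 for the other pairs of a young and an old sample. The samples numbered 1 also share the shorter gene list. With the number as a replicate block the counts were 1 over all cells and 1 in late-only cells, and 0 members. Where 1 sample of the shorter list was left out, the list term took up the other one. Those edgeR fits with the list term thus compared the groups on the samples of the longer list alone. With 3 samples a group and a biological coefficient of variation of 0.563 over all cells, small differences were not detectable, and larger ones could be missed. Psrc1 at a log2 fold change of 1.16 and Cdkn2a at 4.17 did not pass in edgeR over all cells. That 0 members were called thus does not exclude changes of such size.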
